A study of Equus caballus with 68 samples.

Results

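The comparison covered here is the first 48 hours that equine bone marrow mononuclear cells (BMNC) spent in healthy synovial fluid (SF). It was made of all 8 libraries from BMNC before culture (0 hours) and all 7 libraries from BMNC after 48 hours in SF, which are 15 of the 68 libraries of the series, and it was read across all genes. Both libraries existed for 7 horses (Catnip, Dealings, Dreamer, Flash, Lurie, Ollie and RimRun), while the horse Moon had a 0 hour library and none from 48 hours in SF. The series followed such cultures to 10 days, in SF or in inflamed synovial fluid (ISF), to describe how bone marrow cells respond to a healthy and to an inflamed joint environment. All donors were healthy Thoroughbred mares and geldings of 3 to 9 years. BMNC were aspirated from the sternum and isolated on a density gradient. The SF came from healthy middle carpal joints of the same horse, was freed of cells and was used undiluted, and the ISF came from radiocarpal joints of that horse inflamed with lipopolysaccharide. No cell carried a genetic change, and the horse is the replicate. Each cultured library came from cells lifted from a well with EDTA, so it holds only the cells that were recovered, and since the 0 hour cells were never plated, the contributions of the fluid, of plating and of time cannot be told apart.

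The mononuclear fraction of bone marrow is a mixture of monocytes, granulocyte and erythroid precursors, lymphocytes and stem and progenitor cells. Monocytes that settle in a tissue or on a dish can become macrophages: they enlarge, build up lysosomes and lipid handling, and carry scavenger receptors. In a joint, macrophages line the synovial membrane, clear debris, and can drive or end inflammation. In bulk samples such as these, fewer cells of a type and less RNA per cell of that type cannot be told apart.

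Expression was given as GeTMM, read counts scaled to gene length and to a trimmed mean of M values library size, so levels can be set side by side between genes. The libraries held 17.5 M to 31.0 M reads on genes at 0 hours and 15.7 M to 36.0 M at 48 hours in SF. The 10 most abundant genes took 15.5% to 24.9% of each 0 hour library and 10.8% to 15.1% of each 48 hour library. By the 200 genes used to tell horses apart, 15 of 15 libraries were closest to the mean profile of their own horse in the other groups. The entry named CD14, a defining monocyte surface marker, lay between 0.0676 and 1.27 GeTMM in all 15 libraries, so it could not be used to check the label. Among the other monocyte markers LYZ and S100A12 were the most abundant named genes at 0 hours, and the granule protein genes LTF and LCN2 and the hemoglobin genes were also high.

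Gene expression differed widely between the ends of the 48 hours. Of 14570 genes tested with limma, 6615 (45.4%) passed an FDR of 0.05, of which 3247 (22.3% of those tested) were higher in SF at 48 hours and 3368 (23.1%) were lower. The counts given below for gene lists are to be read beside these shares. Changes of at least 2-fold, that is 1 on the log2 scale, were found for 1055 higher genes (7.24%) and 1173 lower genes (8.05%). At 2 or more on the log2 scale there were 301 higher (2.07%) and 256 lower genes (1.76%), at 3 or more 125 (0.858%) and 76 (0.522%), and at 4 or more 40 (0.275%) and 31 (0.213%), of which 36 and 17 carried a gene symbol. The 48 hour libraries lay entirely above the 0 hour libraries for 1775 genes (12.2%) and entirely below them for 1355 genes (9.3%). All 7 horses moved upward for 2961 genes (20.3%) and downward for 2986 (20.5%), and 5166 of the called genes moved in the called direction in every horse. Fold changes are differences of mean log2(GeTMM + 1) and therefore understate changes of genes near 0. The median difference over all genes tested was -0.0085 on that scale.

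The named genes with the largest increases were GPNMB, CCL2, APOE, SPP1 and PLA2G7. GPNMB, a glycoprotein of lysosomal membranes in macrophages, ranged from 5.71 to 33.7 GeTMM at 0 hours (median 20.4) and from 3750 to 8936 in SF at 48 hours (median 4951), a log2 fold change of 8.23 (SE 0.30, FDR = 5.83e-33). CCL2, the chemokine that recruits monocytes, was at 0.0553 to 1.59 GeTMM before culture (median 0.203) and at 192 to 577 after it (median 239), a log2 fold change of 7.74 (SE 0.38, FDR = 5.14e-26). APOE, the lipid carrier that macrophages secrete, went from 4.57 to 40.9 GeTMM (median 9.68) to between 1112 and 2508 (median 1771), a log2 fold change of 6.99 (SE 0.36, FDR = 3.39e-25). None of these ranges overlapped, and every horse with both libraries moved upward. SPP1, which encodes osteopontin, a secreted matrix protein and cytokine, ranged from 5.91 to 20.2 GeTMM (median 10.3) and then from 342 to 3564 (median 1441), a log2 fold change of 6.89 (SE 0.61, FDR = 6.02e-15). CTSK, the collagen-degrading cathepsin of osteoclasts and activated macrophages, ranged from 14.8 to 34.0 GeTMM (median 29.1) and then from 973 to 1957 (median 1796), a log2 fold change of 5.82 (SE 0.39, FDR = 6.78e-20). Both also separated completely, and SPP1 was the more uneven of the pair across horses at 48 hours.

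The other members of the 15 largest named increases were all above their 0 hour range in every 48 hour library. They were PLA2G7, the lipoprotein-associated phospholipase of macrophages (median 1.15 to 256 GeTMM, log2 fold change 6.83), CYP1B1, a cytochrome induced by the aryl hydrocarbon receptor (0.0259 to 97.8, 6.58), and the translation elongation factor EEF1A2 (0.342 to 154, 6.51). CYP7A1, known mainly as the rate-limiting enzyme of bile acid synthesis from cholesterol in liver, went from a median of 0.562 to 105 GeTMM (5.86). The remaining genes were the heparan sulfate degrading heparanase HPSE (log2 fold change 5.67), WFDC2, a secreted protease inhibitor family protein (5.33), the carbonic anhydrase CA12 (5.26), the lysosomal proteases CTSL (5.08) and LGMN (4.88), and the small GTPase RAB42 (4.88). In each of the later SF cultures 13 of these 15 genes had a median further from the 0 hour median than at 48 hours, the exceptions being CTSL and CA12. The median of CA12 was 127.5 GeTMM at 48 hours, 8.12 after 96 hours, 0.60 after 6 days and 0.444 after 10 days.

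**Figure D1:**
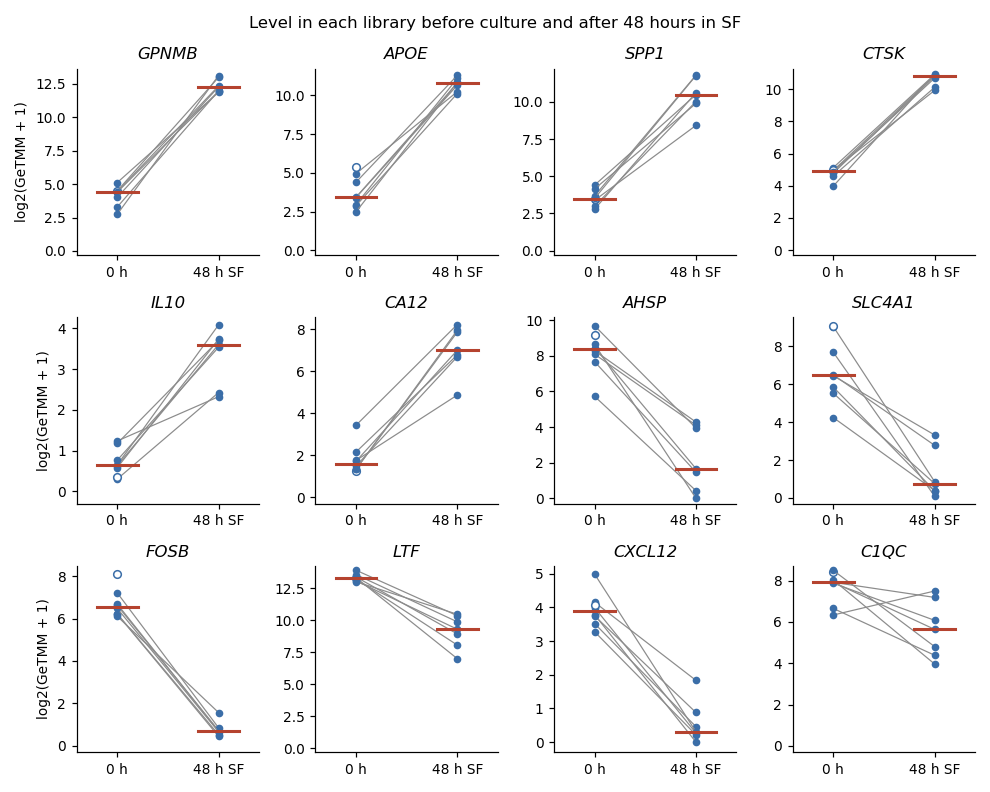
Level of 12 genes in each library, as log2(GeTMM + 1) on the vertical axis, at 0 hours and after 48 hours in SF; thin lines join the libraries of the same horse, the open circle is the 0 hour library of Moon, which had no 48 hour partner, and red bars are group medians. GPNMB, APOE, SPP1, CTSK, IL10 and CA12 were higher in every 48 hour library, AHSP, SLC4A1, FOSB, LTF and CXCL12 were lower in every one, and C1QC was lower in 6 of 7 horses with overlapping ranges.

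Macrophage surface and secreted markers rose in most cases, yet a small set of them fell. Of 19 tested genes of the list 13 were higher and 5 lower, with a median log2 fold change of 4.00 against -0.0085 over all genes. Beside GPNMB, APOE and SPP1, the lysosomal glycoprotein CD68 went from a median of 82.0 to 1663 GeTMM (log2 fold change 4.51), the mannose receptor MRC1 from 4.82 to 110 (4.15), the scavenger receptor MSR1 from 4.72 to 103 (4.00) and the hemoglobin scavenger receptor CD163 from 88.0 to 512 (2.12). TREM2, a lipid-sensing receptor of tissue macrophages, ranged from 2.22 to 8.78 GeTMM at 0 hours (median 3.16) and from 98.5 to 231 at 48 hours (median 146), a log2 fold change of 4.85. All of these were above the whole 0 hour range in every 48 hour library. The 5 markers that fell were C1QB and C1QC, which encode chains of the complement recognition molecule C1q, the tetraspanin CD9, and the chitinase family members CHI3L1 and CHIT1. CHI3L1 ranged from 184 to 336 GeTMM (median 264) and then from 15.3 to 36.2 (median 30.4), a log2 fold change of -3.10, and neither this range nor that of CHIT1 overlapped between the groups. C1QC had a median of 241 GeTMM before and 48.9 after culture (log2 fold change -2.05), with overlapping ranges. The complement receptor VSIG4 did not pass the test (median 27.5 to 62.1 GeTMM, log2 fold change 1.20, limma FDR = 0.0658), but did so with the horse as a block (FDR = 0.021). Without the horse Ollie 3 of the 5 lower calls were made.

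The summed GeTMM of the cell type marker lists moved with these changes. The macrophage list summed to 864 to 1470 GeTMM in the 0 hour libraries and to 11300 to 21200 in the 48 hour libraries, while the monocyte list summed to 54200 to 123000 and then to 7290 to 30600. The 2 groups did not overlap for either list. The monocyte sum is mostly LYZ and S100A12, so it follows these genes more than the surface markers of the list. S100A12, a calcium-binding alarmin, ranged from 22736 to 65935 GeTMM (median 32534) and then from 1797 to 9352 (median 4802), a log2 fold change of -2.90 (SE 0.92, FDR = 0.00739). LYZ, the bacteria-lysing enzyme lysozyme, ranged from 27113 to 52847 GeTMM (median 33619) and then from 3066 to 17558 (median 10123), a log2 fold change of -1.93 (SE 0.82, FDR = 0.0488). Both fell without overlap, although the call for LYZ sat at the threshold and was lost in 10 of 20 other settings, with FDR values from 0.000708 to 0.347. Of 12 tested monocyte markers none was higher and 4 were lower, and the growth factor receptor CSF1R, which monocytes and macrophages share, did not pass (median 75.9 to 114 GeTMM, limma FDR = 0.15).

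**Figure D2:**
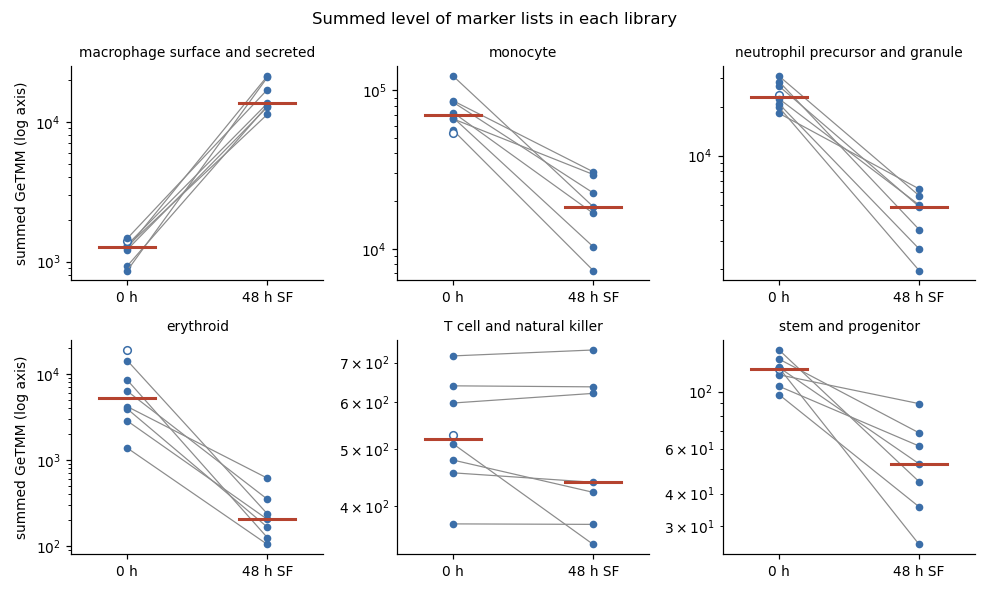
Summed GeTMM of 6 cell type marker lists (logarithmic vertical axis) in each library at 0 hours and after 48 hours in SF, each point being a library. The macrophage sum was above its 0 hour range in every 48 hour library. The monocyte, neutrophil, erythroid and stem and progenitor sums were below theirs. The sums of T cell and natural killer markers, which include the raised NCR1, overlapped between the groups.

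Transcription factors of the monocyte and macrophage lineage changed in both directions. Of 25 tested members 11 rose and 6 fell, against 22.3% and 23.1% of all genes, the decreases being near their share. The lysosome and osteoclast factor MITF went from a median of 2.24 to 15.4 GeTMM (log2 fold change 2.36), and the lipid-activated nuclear receptor PPARG from 6.71 to 20.5 (1.38), in each case above the whole 0 hour range. CEBPE, the factor of late granulocyte maturation, fell from a median of 260 to 51.4 GeTMM (-2.52). SPI1 and IRF8, which act at the root of the myeloid and monocyte lineages, had medians of 926 and 916 GeTMM for SPI1 and 64.4 and 62.8 for IRF8, with FDR values of 0.256 and 0.90 in limma. TBX21, a factor of type 1 lymphocytes, was lower (log2 fold change -2.54).

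Lysosomal genes rose almost as a body. Lysosomes are the acidic compartments in which macrophages digest what they take up. Of 32 tested hydrolases and membrane proteins 29 were higher and none lower, against 22.3% and 23.1% of all genes. Their median log2 fold change was 1.84. For 26 of them every 48 hour library lay above the 0 hour range, against 12.2% of all genes. CTSB, a broad lysosomal protease, ranged from 173 to 338 GeTMM (median 222) and then from 3593 to 8400 (median 4994), a log2 fold change of 4.47. LGMN, the asparaginyl endopeptidase that activates cathepsins, ranged from 55.7 to 130 GeTMM (median 90.5) and then from 1743 to 4338 (median 2751). The 3 members that did not pass were ARSA, ASAH1 and GM2A. The V-ATPase, the proton pump that acidifies lysosomes, showed 12 higher and no lower calls among 17 tested subunits, against the same shares, with a median of 0.97. Its accessory protein gene ATP6AP1 went from a median of 116 to 513 GeTMM (1.95) and ATP6V1F from 308 to 899 (1.75). ATP6V0D2, the subunit form typical of osteoclasts and some macrophages, was between 0 and 0.353 GeTMM at 0 hours and between 1.06 and 39.5 at 48 hours, the widest relative spread among the named members of the list.

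Genes of lipid uptake, storage and efflux rose in 13 of 20 tested members and fell in 1, against 22.3% and 23.1% of all genes. Their median was 1.57. FABP5, a fatty acid carrier of the cytosol, ranged from 14.1 to 25.4 GeTMM (median 19.5) and then from 320 to 567 (median 429), a log2 fold change of 4.41. The scavenger receptor CD36 went from a median of 29.1 to 457 GeTMM (4.02), the lysosomal acid lipase LIPA from 25.7 to 398 (4.22) and lipoprotein lipase LPL from 0.885 to 24.0 (3.73). The groups were separate for all 4 of these genes. Sterol synthesis and uptake genes were higher in 21 of 28 tested members and lower in none, against the same shares, with a median of 0.88. INSIG1, a sterol sensor that holds back the pathway, had the largest log2 fold change of that list (3.44, median 14.2 to 141 GeTMM). Among the enzymes, PMVK (2.49), CYP51A1 (1.96), HMGCS1 (1.37) and MVK (0.72) rose, whereas the regulator SREBF2 (-0.16, limma FDR = 0.551) did not pass. Fatty acid synthesis was mixed: 4 of 14 tested members rose, among them ELOVL5 and ME1, and 2 fell, against 22.3% and 23.1% of all genes.

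Iron storage and heme breakdown genes were higher, whereas heme production genes were lower. FTL and FTH1, the ferritin chains that store iron, were among the most abundant transcripts in SF at 48 hours. FTL ranged from 4663 to 6622 GeTMM before culture (median 5263) and from 18993 to 42470 after it (median 24628), a log2 fold change of 2.31. FTH1 ranged from 2483 to 4813 GeTMM (median 2978) and then from 13130 to 34752 (median 18328), a log2 fold change of 2.59. The heme oxygenase HMOX1 went from a median of 171 to 456 GeTMM (1.55) and the biliverdin reductase BLVRA from 9.50 to 72.9 (2.64), again without overlap. In all, 10 of 17 tested heme and iron handling genes rose and 1 fell. The iron exporter SLC40A1 did not pass (median 159 to 58.2 GeTMM, limma FDR = 0.10). Of 20 tested targets of the oxidative stress factor NRF2 10 rose and 5 fell, against 22.3% and 23.1% of all genes. PRDX1, a peroxide-reducing enzyme, ranged from 84.4 to 136 GeTMM (median 120) and then from 642 to 2164 (median 1188), and OSGIN1 (log2 fold change 3.17), SRXN1 (2.12) and NFE2L2 itself, which encodes NRF2 (1.19), were also higher. Heme synthesis had no higher and 8 lower calls among 11 tested enzymes and mitochondrial transporters. They were led by ALAS2, the erythroid form of the first enzyme (-5.33), and FECH, the last enzyme (-2.26), and included the mitochondrial iron importer SLC25A37. The erythroid marker sum fell beside these enzymes, from 1380 to 19000 GeTMM down to 105 to 615, and its part in their decrease was not tested.

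**Figure D3:**
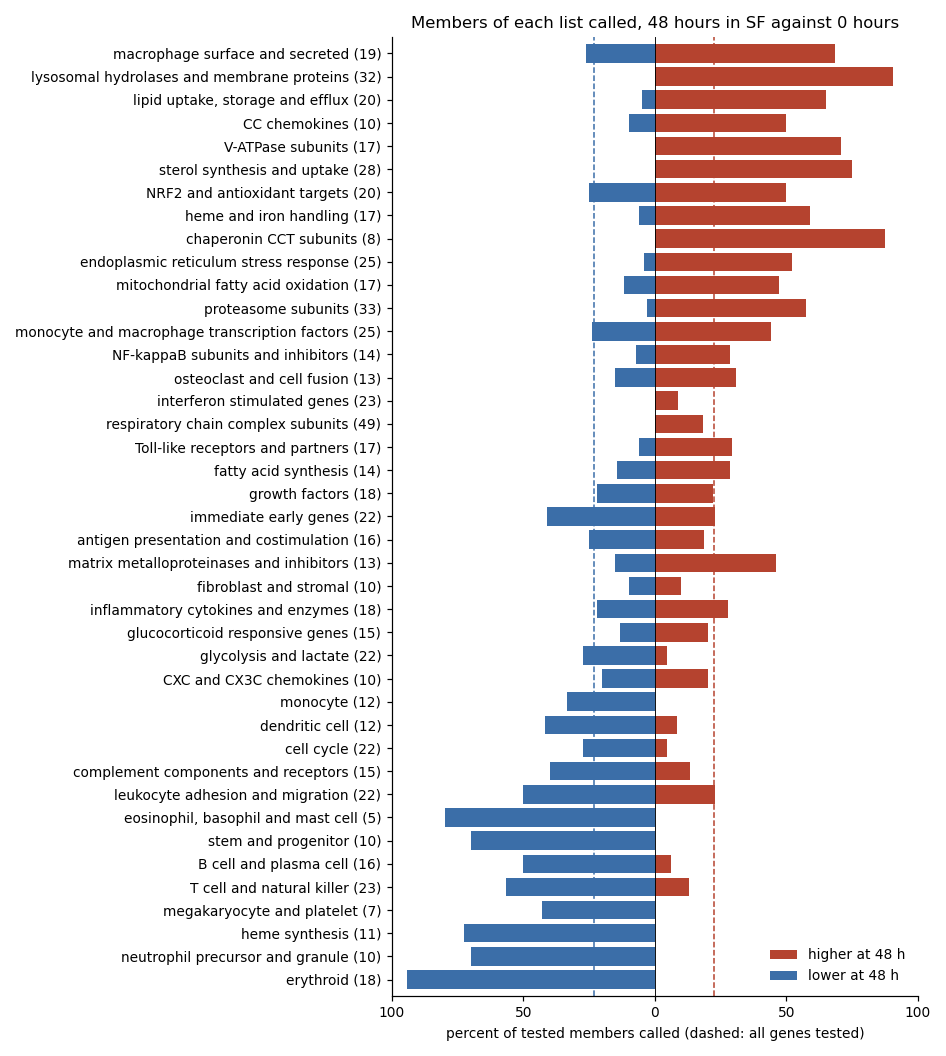
Percent of the tested members of each of 41 gene lists that were higher (red, to the right) or lower (blue, to the left) after 48 hours in SF, with the number tested in brackets; the dashed lines mark the shares over all genes, 22.3% higher and 23.1% lower. Lysosomal, chaperonin CCT, sterol and V-ATPase lists reached furthest to the right, and the erythroid list furthest to the left.

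Chaperonin, proteasome and endoplasmic reticulum stress genes rose for most members of their lists, and most genes of the respiratory chain did not pass. In the chaperonin CCT, which folds actin and tubulin, 7 of 8 subunits rose (median 0.65), for example CCT3 from a median of 66.2 to 115 GeTMM. Of 33 tested proteasome subunits 19 rose, PSMD12 the most (1.16), and 1 fell, the immunoproteasome subunit PSMB10 (-0.95). In the endoplasmic reticulum stress list 13 of 25 rose, including the stress factor DDIT3 (median 79.4 to 357 GeTMM, 2.26), TRIB3 (2.22) and the disulfide isomerase PDIA6 (1.20), while the regulators XBP1 (-0.04, limma FDR = 0.834) and ATF4 (0.10, limma FDR = 0.728) did not pass. Its 1 lower call was lost when any of 6 horses was left out. Of 49 tested respiratory chain subunits 9 were higher and none lower, against 22.3% and 23.1% of all genes, and their median was 0.12. That count was 4 without Flash, 5 without Lurie and 15 without the 6 day SF library of Moon. Mitochondrial fatty acid oxidation had 8 higher and 2 lower calls of 17, among the higher ETFDH (0.90), ETFB (0.79) and ACAA2 (0.69).

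Among glycolysis genes 1 of 22 tested members rose, ENO2, and 6 fell, including 2 hexokinases. The shares over all genes were 22.3% higher and 23.1% lower, so the decreases lay near their share. HK3, the hexokinase of myeloid cells, ranged from 924 to 1272 GeTMM (median 1086) and then from 110 to 518 (median 326), a log2 fold change of -1.86, and HK2 fell by 2.38 on the log2 scale. GAPDH fell from a median of 2793 to 1364 GeTMM without overlap (-1.01), whereas LDHA did not pass (567 and 534 GeTMM, limma FDR = 0.946). ENO2 had a median of 0.388 GeTMM before and 2.83 after culture, and its call was lost without Dealings, Lurie or Ollie, while the block by horse gave 2 higher calls. The neutrophil marker sum fell beside HK3, from 18200 to 30800 GeTMM down to 1970 to 6240, and its part in that decrease was not tested.

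**Figure D4:**
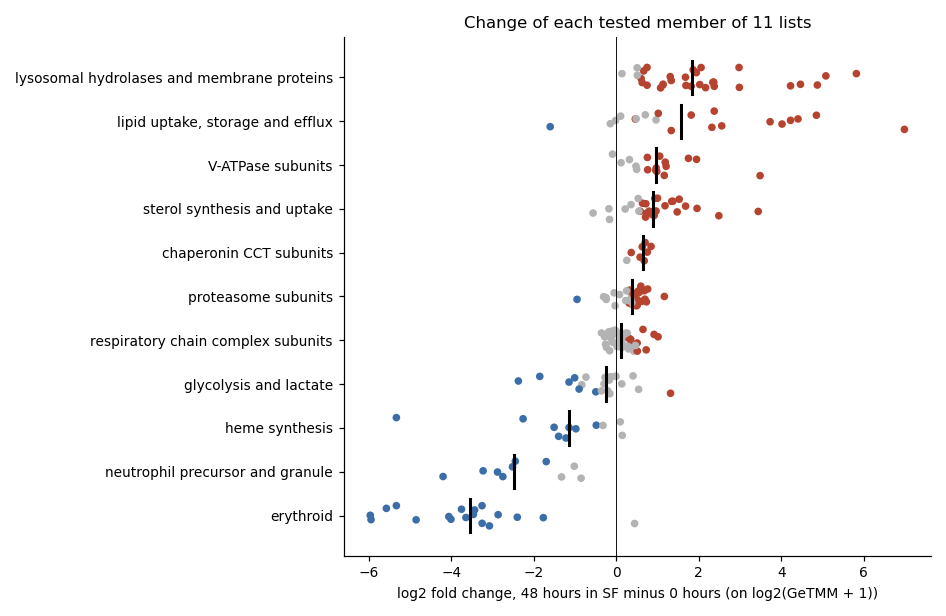
Log2 fold change from 0 hours to 48 hours in SF for each tested member of 11 gene lists; red points rose and blue points fell at an FDR of 0.05, grey points did not pass, and black lines are list medians. The lysosomal members lie to the right of 0 with a median of 1.84, and the erythroid members to the left with a median of -3.56.

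Chemokine genes other than CCL2 rose more modestly. Of 10 tested CC chemokines 5 rose and 1 fell, against 22.3% and 23.1% of all genes. CCL3, which recruits monocytes and lymphocytes, went from a median of 16.9 to 83.6 GeTMM (log2 fold change 2.08) and CCL11, the eosinophil attractant eotaxin, from 0 to 2.13 (1.87), each above the whole 0 hour range. CCL22 stayed low (median 0 to 0.915 GeTMM, 1.26) and its call was lost without Dreamer or Ollie. CCL5, a chemokine of T cells, was the member that fell, from a median of 109 to 26.9 GeTMM (-1.69). Among 10 CXC and CX3C chemokines CXCL16 (1.58) and CXCL14 (1.19) rose and 2 fell, 1 without Dealings or Dreamer. Both counts lay near the shares over all genes. CXCL12, the ligand that retains stem and myeloid cells in marrow and a product of stromal cells, ranged from 8.69 to 30.7 GeTMM (median 13.8) and then from 0 to 2.56 (median 0.237), a log2 fold change of -3.38 without overlap. The neutrophil attractant CXCL8 did not pass (median 89.8 to 69.7 GeTMM, limma FDR = 0.0803). The receptor CCR1 rose (1.80).

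IL10 and IL18 had the largest increases among the cytokine genes. IL10, the main anti-inflammatory cytokine of macrophages, ranged from 0.234 to 1.36 GeTMM (median 0.561) and then from 4.01 to 15.99 (median 11.2), a log2 fold change of 2.63 (SE 0.37, FDR = 2.25e-08). IL18, an inflammasome-dependent cytokine, ranged from 21.3 to 47.8 GeTMM (median 32.9) and then from 187 to 581 (median 451), a log2 fold change of 3.48. Both were separate between the groups. IL1B, the other main inflammasome cytokine, ranged from 8.36 to 20.2 GeTMM (median 14.9) and then from 6.50 to 39.6 (median 27.1), a log2 fold change of 0.78 (SE 0.32, FDR = 0.043). Its ranges overlapped, it was higher in 6 of 7 horses, and the call was lost when any of 7 of the 8 horses (all but Flash) was left out, with FDR values from 0.00584 to 0.14 over all other settings. TNF rose slightly (median 6.65 to 11.5 GeTMM, 0.67) and IL6 was at most 0.248 GeTMM in all 15 libraries. In all, 5 of 18 tested cytokine and enzyme genes rose and 4 fell, near the 22.3% and 23.1% of all genes, and the count of 5 was 2 without Ollie and 3 without Catnip, Dreamer, Lurie, Moon or RimRun.

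The subunits and inhibitors of NF-kappaB, the factor that drives many inflammatory genes, included 4 increases and 1 decrease of 14, against 22.3% and 23.1% of all genes, with RELB (1.86) and NFKB2 (1.00) of the noncanonical branch and the adhesion target ICAM1 of another list (1.68) higher and the inhibitor TNFAIP3 lower (-0.94). Among 17 tested Toll-like receptors and partners TLR2 (1.39) and LY96 (1.18) were among 5 that rose, against 22.3% of all genes and a count of 3 without Lurie or without Ollie, and the adaptor TIRAP fell (-1.15). Interferon stimulated genes were mostly not called: 2 of 23, IFI6 (1.52) and OAS2 (1.63), rose and none fell, and OAS2 was lost without Ollie. In antigen presentation CD86 (1.25) and CD83 (1.48), both costimulatory markers, were among 3 that rose of 16, and 4 fell, near the shares over all genes. In the complement list C3AR1, the receptor of C3a (3.84), and C2 (2.29) rose and 6 of 15 fell.

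Some matrix, bone and growth factor genes also moved. Of 13 tested matrix metalloproteinases and inhibitors 6 rose and 2 fell, led by the macrophage elastase MMP12 (median 0.0292 to 14.9 GeTMM, log2 fold change 4.02) and the membrane-bound MMP14 (1.33 to 30.8, 3.98), and the sheddase ADAM9 rose as well (2.93). The osteoclast list had 4 increases and 2 decreases of 13, against 22.3% and 23.1% of all genes. ACP5, the acid phosphatase that stains osteoclasts, was among the increases and went from a median of 71.0 to 297 GeTMM (2.32). The 2 decreases of the list were 1 without Flash or without Ollie. Among 18 growth factors IGF1 (3.64) and PDGFB (2.39) rose and HGF (-1.75), HBEGF (-1.72) and INHBA (-1.56) fell. In all 4 rose and 4 fell, near the shares over all genes. IGF1 ranged from 0 to 1.13 GeTMM (median 0.512) and then from 1.70 to 44.9 (median 25.04), and the lowest 48 hour value was that of RimRun. CSF1, the growth factor that keeps macrophages alive, was higher in 7 of 7 horses (median 5.26 to 12.6 GeTMM, 1.09). It did not pass in the main limma fit (FDR = 0.125) and passed with the horse as a block (FDR = 0.0367). CSF1 also passed when limma was fitted to only the groups compared, with or without that block. SIRT2, a deacetylase, rose from a median of 15.6 to 22.4 GeTMM (0.67).

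Red cell genes showed the deepest decreases. HBA2 and HBA, the alpha globin entries, ranged from 985 to 16653 and from 1209 to 16479 GeTMM before culture (medians 4401 and 4432). At 48 hours they ranged from 5.65 to 311 and from 8.90 to 413 GeTMM (medians 85.5 and 103), with log2 fold changes of -6.18 and -5.97. These entries are near-identical copies, so the split of reads between them is uncertain. AHSP, the chaperone of alpha globin, ranged from 51.9 to 826 GeTMM (median 332) and then from 0 to 18.5 (median 2.17), a log2 fold change of -5.95, and SLC4A1, the anion exchanger of the red cell membrane, went from a median of 87.9 to 0.689 (-5.58). No range overlapped. Of 18 tested erythroid genes 17 fell and none rose, with a median of -3.56. The lineage factors GATA1 (-3.25) and KLF1 (-3.26) fell with the others, and the member that did not pass was TFRC, the transferrin receptor that other cells also use (median 69.1 to 99.3 GeTMM, 0.44, limma FDR = 0.498). Of the 15 largest named decreases 13 are genes abundant in red cells or their precursors, among them HBA2, HBA, AHSP, SLC4A1, ALAS2, CA1, KEL, YPEL4, PRDX2, TMCC2, DMTN and CA2.

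The remaining pair in that set of 15 were FOSB and LTF. FOSB, an immediate early transcription factor that cells induce within minutes of handling or stimulation, ranged from 67.8 to 274 GeTMM (median 92.4) and then from 0.361 to 1.96 (median 0.602), a log2 fold change of -5.92 (SE 0.24, FDR = 2.2e-30). FOS (median 632 to 66.3 GeTMM, -3.44) and EGR1 (85.5 to 15.5, -2.23) were also lower, while CDKN1A, the cell cycle inhibitor p21 of the cell cycle list, was higher (3.32). The immediate early list split into 9 decreases and 5 increases of 22 tested, against 23.1% and 22.3% of all genes. Of 15 glucocorticoid responsive genes TSC22D3 fell (-2.27), SGK1 rose (2.36), and in all 3 rose and 2 fell, neither above its share over all genes.

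Most granule genes of neutrophil precursors fell. LTF, the iron-binding lactoferrin of secondary granules, ranged from 8152 to 15221 GeTMM (median 10095) and then from 127 to 1404 (median 624), a log2 fold change of -4.20 (SE 1.07, FDR = 0.000881). LCN2 (-2.88), BPI (-3.23) and CEBPE (-2.52) also fell without overlap, and 7 of 10 tested members were lower and none higher. The 3 that did not pass were the primary granule protein genes MPO (median 682 to 408 GeTMM, -0.85, limma FDR = 0.319), ELANE (1321 to 629, -1.33, limma FDR = 0.146) and AZU1 (1478 to 742, -1.02, limma FDR = 0.287), each lower in 6 of 7 horses. CSF3R, the receptor for granulocyte growth factor, did not pass either (637 and 606 GeTMM, limma FDR = 0.902). Of 5 tested eosinophil, basophil and mast cell genes 4 fell, among them EPX (-3.34) and CCR3 (-2.68).

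Lymphoid, progenitor and other markers were lower in part, the shares over all genes being 23.1% lower and 22.3% higher. Of 23 tested T cell and natural killer markers 13 fell and 3 (CD4, CCR7 and NCR1) rose, CD3E going from a median of 52.4 to 27.5 GeTMM (-1.05) and NCR1, a natural killer receptor, from 74.9 to 203 (1.33). Of 16 B cell and plasma cell markers 8 fell, 13 with the horse as a block, for example CD79A (54.6 to 18.4 GeTMM, -1.34) and MZB1 (-2.19). The 1 that rose was SDC1, a plasma cell marker that other cells also express, from 7.78 to 18.0 GeTMM (median 13.1) to between 185 and 465 (median 234), a log2 fold change of 4.26. The summed T cell list ranged from 374 to 718 GeTMM and then from 345 to 735, and the B cell list from 546 to 4030 and then from 461 to 1740, so both overlapped. These sums include the raised NCR1 and SDC1. At 48 hours NCR1 was 242 of 373 GeTMM in RimRun and 184 of 637 in Catnip. SDC1 was 465 of 643 GeTMM in Dealings and 193 of 1262 in Catnip. The overlap therefore does not show that the other members were unchanged. Stem and progenitor genes fell in 7 of 10, with CD34 at a median of 4.51 and then 1.41 GeTMM (-1.38) and PROM1 at 36.9 and then 8.56 (-1.98). Megakaryocyte genes fell in 3 of 7 and dendritic cell genes in 5 of 12, with 1 higher, which was lost without Dreamer or Ollie. In the stromal list CXCL12 was the 1 lower call of 10, the collagen gene COL1A1 had medians of 1.6 and 0.0613 GeTMM, and fibronectin FN1, which macrophages also make, had medians of 5.66 and 9.23 (limma FDR = 0.356). Its 1 higher call was PRELP (median 0.774 to 3.57 GeTMM, 1.39), which was lost without Dealings, Dreamer, Flash or Ollie.

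Of 22 tested cell cycle genes 1 rose and 6 fell, the latter near the 23.1% of all genes. The S phase enzyme TYMS (-0.93) and the cyclin CCNE1 (-1.10) were among the 6, a count of 3 without RimRun. TOP2A, which marks dividing cells, was at medians of 46.5 and 49.2 GeTMM (limma FDR = 0.809). Of 22 tested adhesion and migration genes 11 were lower and 5 higher, against 23.1% and 22.3% of all genes. ITGB2, the common chain of leukocyte integrins, ranged from 903 to 1542 GeTMM (median 1085) and then from 222 to 547 (median 342), a log2 fold change of -1.66 without overlap.

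Horses varied in how far some genes moved. The median SD over horses was 0.255 at 0 hours and 0.265 at 48 hours on the log2 scale, and 0.343 for the change within a horse. Among the named genes the most variable changes belonged to red cell genes, with HBA2 changing by -10.1 to -3.31 (SD 2.23, n = 7) and SLC4A1 having an SD of 1.97. ATP6V0D2 rose by 0.63 to 5.28, Lurie and Catnip being the lowest with 0.63 and 0.94. C1QC changed by -4.07 to 1.16, and Flash was the horse in which it was higher. CDKN1A rose by 0.66 in Flash and by 5.4 in RimRun.

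The size of the whole shift was measured within each horse as the root mean square difference of log2(GeTMM + 1) over all genes tested. From 0 to 48 hours in SF it was 0.918 in Catnip, 1.14 in Dealings, 0.841 in Dreamer, 1.09 in Flash, 0.843 in Lurie, 0.972 in Ollie and 0.953 in RimRun, a mean of 0.964 ± 0.113 (SD, n = 7). The next 48 hours in SF, from 48 to 96 hours, moved the same horses by 0.628 ± 0.0721 (SD, n = 7). The first interval was larger in 7 of 7 horses, by 0.337 ± 0.128 (two-sided exact permutation test over horses, p = 0.0156, the smallest that 7 horses allow, and 0.0312 adjusted over the 2 distance comparisons). In ISF the first 48 hours moved the horses by 1.07 ± 0.0763 (SD, n = 7), which was more than in SF in 5 of 7 horses. The difference of SF from ISF, -0.104 ± 0.0956, did not pass (exact p = 0.0625, also when adjusted).

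A library of the same horses in ISF shows which of these genes differed between fluids at the same time, that is, whose first 48 hours differed, since both share the 0 hour libraries. Of the 14570 genes 245 (1.68%) passed, 127 higher (0.872%) and 118 lower (0.81%) in ISF, and 149 of the 245 (1.02% of all tested) were also called from 0 to 48 hours in SF. With the horse as a block the count was 660. It was 75 without Dreamer, 95 without Catnip, 112 without Lurie, 130 without Ollie and 721 without Moon, which had libraries at 0 hours and from 96 hours on but none at 48 hours. SPP1, already raised in SF, ranged from 8860 to 20341 GeTMM in ISF (median 14535) against 342 to 3564 in SF, 3.37 higher on the log2 scale (SE 0.63, limma FDR = 0.00131). CCL2 ranged from 840 to 4899 GeTMM in ISF (median 1142) against 192 to 577, 2.39 higher (SE 0.40, limma FDR = 0.000181), and CCL11 from 9.34 to 100.1 (median 21.8) against 1.61 to 7.26, 2.7 higher (SE 0.49, limma FDR = 0.000796). For these 3 genes every ISF library lay above every SF library. CTSL was 1.45 higher in ISF (median 177 against 64.4 GeTMM). BATF3, a factor of dendritic cells, was at a median of 4.75 GeTMM at 0 hours, 1.76 in SF and 6.73 in ISF, 1.46 higher in ISF than in SF (limma FDR = 0.00508, and 0.0577 with a pseudocount of 0.1). IGF1 ran the other way, with 0 to 3.82 GeTMM in ISF (median 1.48) against 1.70 to 44.9 in SF, a log2 difference of -2.89 (limma FDR = 0.00853, 0.0569 without Lurie and 0.107 with voom on recovered reads).

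**Figure D5:**
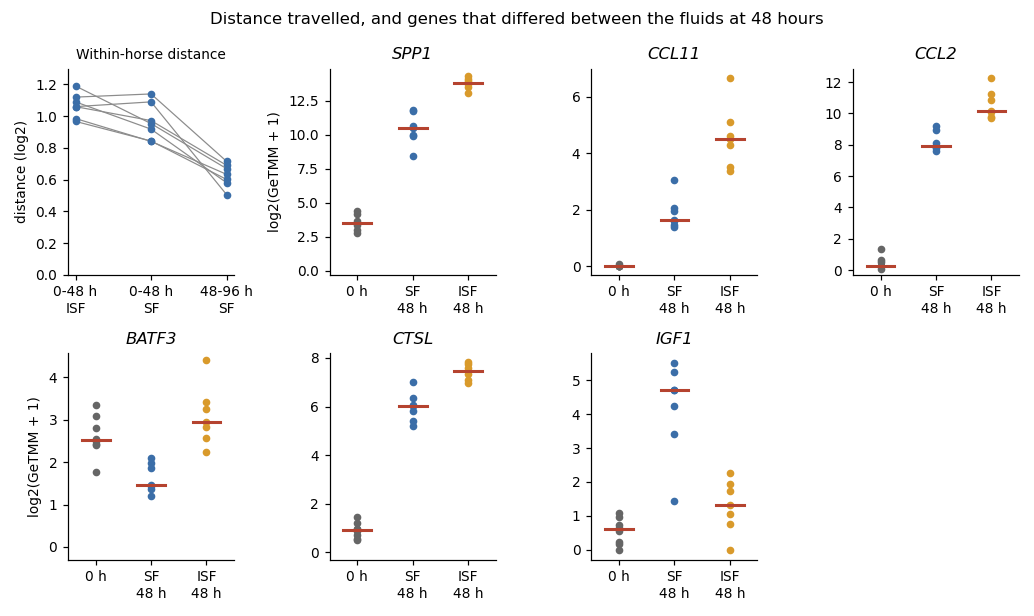
Left, root mean square log2 difference within each horse for 0 to 48 hours in ISF, 0 to 48 hours in SF and 48 to 96 hours in SF; other panels, log2(GeTMM + 1) of SPP1, CCL11, CCL2, BATF3, CTSL and IGF1 in each library at 0 hours, at 48 hours in SF and at 48 hours in ISF. SPP1, CCL11 and CCL2 were highest in ISF in every library, and IGF1 was raised in SF (median 25.04 GeTMM) more than in ISF (median 1.48).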

How the data were processed

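RNA of BMNC was sequenced as stranded paired reads. The authors trimmed the reads, aligned them with STAR 2.7.2a to the horse genome EquCab3.0, counted them per Ensembl gene and made GeTMM with edgeR; the deposited values are therefore RPKM-type values, counts per kilobase and library size scaled by a trimmed mean of M values. Differential tests of the authors used DESeq2, which needs counts. Here limma 3.58.1 (R 4.3.3, lmFit, eBayes with a trend) was fitted to log2(GeTMM + 1) of all 68 libraries in 9 groups. All groups were fitted together, since the pooled spread is then estimated from more libraries. That spread also takes in the later groups, and a fit of only the groups compared called 7619 genes, against 6615. The fit had no horse term, as the methods of the study name none. The 14570 genes that reached 0.5 GeTMM in 7 or more libraries were tested, and p-values were adjusted over all of them by Benjamini-Hochberg. Tables and figures were made with Python 3.11.15, numpy 2.4.6, pandas 2.3.3, scipy 1.17.1 and matplotlib 3.10.9.

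Libraries were grouped by their titles, and 0 columns were left unused. Libraries of the same horse came from the same animal: the deviations of its 0 hour and 48 hour libraries from their group means correlated at 0.121 to 0.324 in the 7 horses, so the horse as a block was run as an alternative. Whole reads could be recovered from the steps of the deposited values for 24065 of 24065 genes above 0, within 0.02 reads. voom in limma on these reads called 6615 genes (3254 higher, 3361 lower), 6331 of them shared with the calls reported. The depth given is the sum of these reads. Other alternatives were the pseudocount, the filter, the scaling, library weights, fewer groups and leaving out each horse. The code was tested on simulated data.

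The members and the 41 gene lists were chosen with earlier results of these data known. Named genes were the 15 with the largest increase and the 15 with the largest decrease among called genes with a symbol, carried by 1 entry, a mean of at least 5 GeTMM in either group and the same direction in all 7 horses, the 3 called genes of each list with the largest absolute change, members given as not passing, and 12 genes followed in the study; other list members were named after their values were seen. Entries without a symbol (13157) were tested and are not named. No sequences or coordinates were used, and some genes are not reported here.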

Additional observations from a re-analysis of the deposited data

Results flagged for a closer look

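Within-horse changes from 0 to 48 hours in SF were screened for a horse apart from the others in 142 named genes, with Dixon's 95% critical value for 7 horses. Such a horse was found for 7 genes, and chance gives about 1 in 20. LGMN rose by 3.99 in Catnip and by 4.82 to 5.44 in the others. FOSB changed by -4.54 in RimRun and by -6.36 to -5.70 in the others. MS4A2 changed by -1.89 in Dealings against -0.81 to -0.33, and TIRAP by -2.14 in Flash against -1.20 to -0.88. CCL11 rose by 2.97 in Lurie and by 1.38 to 2.06 in the others. IGF1 rose by 0.49 in RimRun, where its SF level at 48 hours was 1.70 GeTMM, and by 3.17 to 4.88 in the other 6 horses. IL1B changed by -0.85 in Flash and by 0.46 to 1.39 in the others. No horse recurred in more than 2 of the 7 genes.

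For 6 named genes the first 48 hours differed between the fluids by the test of the difference itself in limma. ISF exceeded SF by 3.37 for SPP1, 2.7 for CCL11, 2.39 for CCL2, 1.46 for BATF3 and 1.45 for CTSL on the log2 scale, and IGF1 differed by -2.89.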

How the results depend on the processing

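The 6615 calls of the first 48 hours in SF kept their sign wherever another setting also called the gene, and each of the 20 other fits called 87.0% to 100% of them. The replicate block (a term for horse, the pairing being by animal) gave 3506 higher and 3755 lower genes, called CSF1 and VSIG4, raised the B cell list from 8 to 13 lower and the glycolysis list from 1 to 2 higher, and changed no other call of a named gene. Requiring at least 2-fold left 2228 genes, 1055 higher and 1173 lower. Without a low-value filter 3245 were higher and 4250 lower. The fluid comparison at 48 hours was the least stable: 245 genes became 75 to 721 when a horse was left out (163 without RimRun), 2233 with library weights, 1595 with the replicate block on the paired horses alone, 660 with the replicate block on all, 397 after quantile normalisation and 92 at 2-fold or more. Chosen after seeing the data, leaving out the 6 day SF library of Moon gave 728, and 3844 higher and 3802 lower genes in SF. The GeTMM of that library summed to 2321940, against 947642 for Moon in SF at 10 days. Leaving out the 0 hour library of Moon, which has no partner and was also chosen after seeing the data, gave 3011 higher and 3155 lower genes in SF. The causes were not tested. The within-horse distance of SF from ISF passed on recovered reads scaled to library size (-0.111, exact permutation p = 0.0469). Of 141 called named genes 135 stayed called in every one of the 20 alternatives that tested them (MS4A2 was not tested under a filter of 1 GeTMM), and LYZ, IL1B, CCL22, ENO2, PRELP and OAS2 did not. Genes near 0 GeTMM rest on few reads, since 1 read on a gene of 1 kilobase is worth 0.0337 to 0.0792 GeTMM in these libraries.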

Other observations

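Of the 15 named genes that fell most, 14 had a median further from the 0 hour level at 96 hours in SF than at 48 hours, the exception being CA2, and 12 did so at 6 days and at 10 days, the exceptions being FOSB, DMTN and CA2. The summed macrophage markers continued upward after 48 hours, with medians of 40600 GeTMM at 96 hours, 58900 at 6 days and 60100 at 10 days, against 13500 at 48 hours. The summed monocyte markers had medians of 9490, 7150 and 2070 GeTMM at those times, against 18400 at 48 hours. LYZ, a large part of this sum, had medians of 5909, 2699 and 672 GeTMM, and S100A12 of 2225, 2163 and 485. From 0 to 48 hours 8 of the 12 tested monocyte markers were not called, so the sum does not stand for each marker. The summed fibroblast and stromal markers, 15.4 GeTMM at 48 hours, had medians of 49.3, 89.1 and 184 later, with 5500 in the highest 10 day library.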
